A study of Rattus norvegicus with 16 samples.

Results

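The endothelin genes of rat sciatic nerve were followed through crush injury: the ligands Edn1 and Edn3, the receptors Ednra and Ednrb, and Ece1, the converting enzyme that cuts the inactive big endothelins into active peptides. These 5 genes of the 31038 in the files were chosen because Edn3 went from no counts in Schwann cells of uncrushed nerve to clear expression after crush. The change of Edn3 against uncrushed samples is therefore a description and carries no test here, nor does the difference of Edn3 between Schwann cells and whole nerve of uncrushed animals.

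Immunopanned Schwann cells and intact sciatic nerve each gave RNA for sequencing, in 16 libraries, 2 for each of 8 groups: Schwann cells uncrushed, day 3, day 5 and day 7, and whole nerve at the same times. The crush was made at postnatal day 18, and only nerve distal to the crush was taken. Postnatal day 18 is also the age given for the uncrushed animals. Nothing in the sources used here named a strain or a sex. The uncrushed group had no sham operation, so surgery and crush cannot be told apart. No uncrushed nerve was taken 3, 5 or 7 days later, so age and crush cannot be told apart either. Each library pooled at least 10 nerves, and no source said that the libraries of a group came from separate litters, so the p-values below measure the spread between pools, which may be in part technical. Schwann cells were obtained by removing cells that bind antibodies to CD45 and Thy1 and then capturing cells that carry O4. They were first freed by enzymes, gave more cells per nerve after crush, and had RNA isolated with another kit than intact nerve. Tissue and handling can therefore not be told apart. The paper expected no marked change from purification beyond immediate early genes, and checked this on dissociated nerve.

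Endothelins are small secreted peptides best known as constrictors of blood vessels. They act through a pair of G protein-coupled receptors: Ednra binds endothelin-1 far more tightly than endothelin-3, whereas Ednrb binds both alike. In the embryo, Edn3 and Ednrb guide neural crest cells that form pigment cells and the enteric nervous system, and Schwann cells arise from the same crest. Endothelin signalling through Ednrb has also been tied to the timing of Schwann cell development.

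The totals of expected counts were 10555067 to 27562637 per library. Purified Schwann cells had less of all 10 endothelial markers than whole nerve did at each of the 4 times, with a summed level of 1.66 to 6.71 FPKM against 118 to 156. FPKM is fragments per kilobase of transcript, scaled to the fragments of the library. Macrophage markers summed to 2.58 to 12.7 FPKM in the Schwann cell libraries against 123 to 561 in whole nerve, fibroblast markers to 245 to 581 against 4130 to 6390, and mural markers to 9.21 to 63.1 against 285 to 434. Of 10 Schwann cell markers, 6 were higher in the purified cells from uncrushed nerve and 4 were lower, and 10, 10 and 7 were higher at days 3, 5 and 7. The second Schwann cell library of day 3 stood apart. It had the largest total, a macrophage sum of 12.7 FPKM against 2.58 in the first, an endothelial sum of 5.39 against 1.66, and 95 counts of the mast cell chymase Cma1, named after its values were seen, against 4. For the 5 endothelin genes, results of day 3 are given with and without it where it changed a call. The calls of marker genes and of listed pathway genes were not repeated without it. The plot of marker sums shows these levels in each library.

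**Figure D1:**
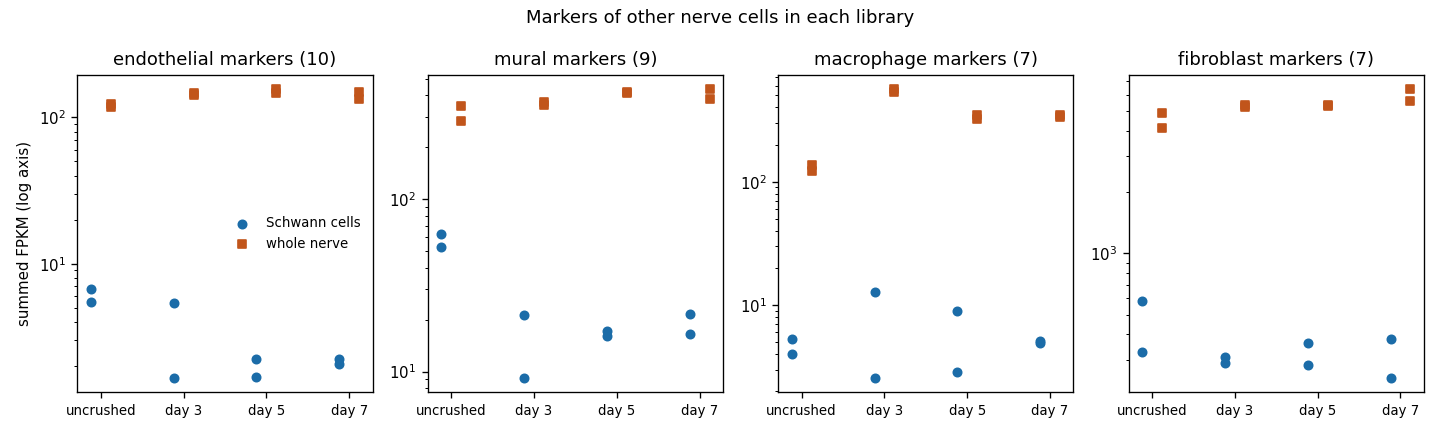
Summed FPKM (log axis) of the markers of 4 other nerve cell types by time after crush; each point is 1 library, circles Schwann cells and squares whole nerve. The Schwann cell libraries lie below the whole nerve libraries in all 4 panels, with endothelial sums of 1.66 to 6.71 against 118 to 156.

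Of the 5 genes, 4 had an entry in the RefSeq promoter table of the assembly GRCr8, and Edn3 had none. The 250 bases before the start are shown for Edn1, the ligand detected in Schwann cells before injury, and for Ednrb, the receptor with the highest level. They were searched on both strands for the AP-1 motif TGANTCA, which 6.34% of 33469 promoters held, the SOX motif ACAAAG (16.3%), the motif AGATAA of GATA factors (10.3%) and the TATA box motif TATAAA (12.9%). Edn1 matched the motif of GATA factors at -214, as its reverse complement, and the TATA box motif at -110; both are in capitals and do not overlap, and positions count from the start of the gene. Ednra, Ednrb and Ece1 had no match, which says only that these letters are not in the window.
Edn1 (chr17:22666688-22666937, minus strand): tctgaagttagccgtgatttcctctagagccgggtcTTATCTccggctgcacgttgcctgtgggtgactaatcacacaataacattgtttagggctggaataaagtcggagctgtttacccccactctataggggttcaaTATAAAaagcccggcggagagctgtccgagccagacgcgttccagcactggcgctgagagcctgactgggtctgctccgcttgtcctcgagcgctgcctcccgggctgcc
Ednrb (chr15:87086766-87087015, minus strand): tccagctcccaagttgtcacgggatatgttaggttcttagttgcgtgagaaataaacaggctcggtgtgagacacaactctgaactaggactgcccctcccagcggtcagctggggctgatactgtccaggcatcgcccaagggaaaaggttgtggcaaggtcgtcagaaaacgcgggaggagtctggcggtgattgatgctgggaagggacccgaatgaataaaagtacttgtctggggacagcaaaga

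The first question was what crush did to the ligands. Edn3, the ligand of the neural crest, was not detected in Schwann cells of uncrushed nerve, with 0 counts in both libraries. At day 3 it had 321 and 720 counts, or 37.3 and 48.2 FPKM. Day 5 followed with 49.0 and 44.4 FPKM from 496 and 392 counts, then day 7 with 12.4 and 13.8 FPKM from 120 and 92 counts. Every crushed library was above both uncrushed ones. Set against a floor of 3 counts per uncrushed library, TMM-scaled counts were at least 107-fold higher at day 3, at least 110-fold at day 5 and at least 30.5-fold at day 7, bounds that cover counting error only.

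Whole nerve held some Edn3 before injury, 1.52 and 2.59 FPKM from 13 and 15 counts. It then reached 44.8 and 33.2 FPKM at day 3, 17.6 and 18.8 at day 5, then 6.87 and 9.91 at day 7. All 6 crushed libraries lay above both uncrushed ones. The ratio of TMM-scaled counts to uncrushed nerve was 14.4 at day 3, with 9.62 to 22.5 over the pairs of libraries, then 6.61 (5.01 to 9.36) at day 5 and 3.07 (1.99 to 4.92) at day 7. Uncrushed whole nerve was at least 6.17-fold above the floor of uncrushed Schwann cells. In bulk RNA, more cells of a type and more RNA per cell cannot be told apart.

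The later course of Edn3 was tested by quasi-likelihood in edgeR. The choice of genes rested on clear expression of Edn3 after crush, and so on some of the values tested here. The p-values of Edn3 are therefore a description, and the choice may favour an excess in crushed Schwann cells. From day 3 to day 7, Edn3 fell by 1.81 on the log2 scale in Schwann cells (SE 0.185, adjusted p = 0.000302) and by 2.22 in whole nerve (SE 0.244, adjusted p = 0.000171). Both days 7 lay below both days 3 in each tissue. Schwann cells held more Edn3 than whole nerve at day 5, by 1.30 (SE 0.217, adjusted p = 0.000215). At day 3 the tissues differed by 0.17 (SE 0.207, adjusted p = 0.504) and their libraries overlapped by FPKM. By TPM, which scales each library to the same sum, they did not overlap. TPM was 73.03 and 92.55 in Schwann cells against 68.38 and 50.99 in whole nerve. The FPKM of all genes summed to 511242 and 520441 in Schwann cells of day 3 and 654700 and 650407 in whole nerve. Without the second library of either tissue at day 3 the log2 difference was -0.04. At day 7 it was 0.57 (SE 0.249, adjusted p = 0.073), and it passed 0.05 with upper quartile scaling (0.67, adjusted p = 0.0366), with total counts (0.62, adjusted p = 0.0466) and without the second whole nerve library of day 7 (0.86, adjusted p = 0.038). By mean FPKM the order was Schwann cells day 5 (46.7), Schwann cells day 3 (42.8), whole nerve day 3 (39.0), whole nerve day 5 (18.1), Schwann cells day 7 (13.1), whole nerve day 7 (8.39), whole nerve uncrushed (2.05) and Schwann cells uncrushed (0). In FPKM the first 3 overlapped and all later neighbours were apart.

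**Figure D2:**
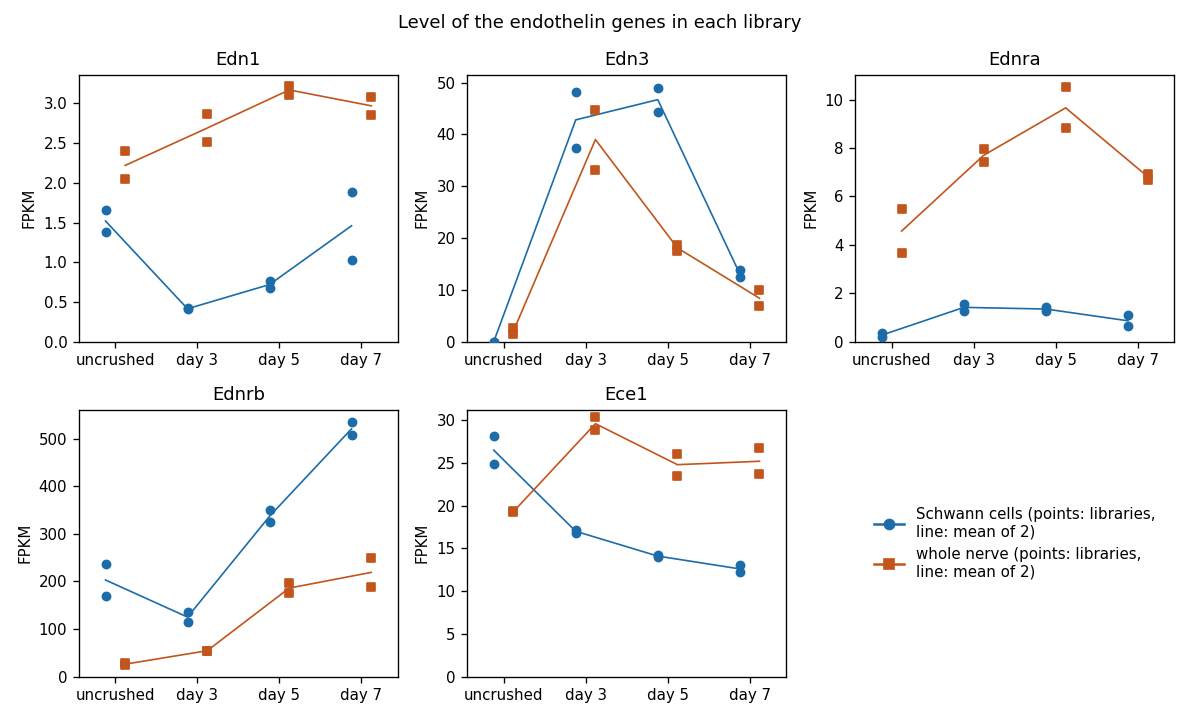
FPKM of Edn1, Edn3, Ednra, Ednrb and Ece1 by time after crush; each point is 1 library, circles Schwann cells and squares whole nerve, and lines join the means of 2 libraries. Edn3 climbs from 0 to 37.3 to 49.0 FPKM in Schwann cells at days 3 and 5, and Ednrb reaches 507 and 536 FPKM at day 7.

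Edn1, the vascular ligand, went the other way in Schwann cells. It measured 1.66 and 1.38 FPKM in uncrushed cells, 0.42 and 0.41 at day 3, 0.68 and 0.76 at day 5, then 1.88 and 1.03 at day 7. The libraries of days 3 and 5 were below both uncrushed ones, and those of day 7 were on either side. These levels rest on few reads, 43 and 36 counts in uncrushed cells and 10 and 24 at day 3. On the log2 scale Edn1 fell by 1.88 at day 3 (SE 0.380, adjusted p = 0.00238) and by 1.17 at day 5 (SE 0.366, adjusted p = 0.0218), and at day 7 it stood at -0.22 (SE 0.352, adjusted p = 0.628). The call of day 5 was lost with DESeq2 (adjusted p = 0.0672) and on leaving out any 1 of its 4 libraries, where adjusted p ran from 0.0575 to 0.113. Between days 3 and 7 Edn1 rose by 1.66 (SE 0.379, adjusted p = 0.013), a call lost without the first library of day 3 (0.0763) or of day 7 (0.103).

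In whole nerve Edn1 stood at 2.40 and 2.05 FPKM before crush, 2.51 and 2.87 at day 3, 3.11 and 3.22 at day 5, then 3.08 and 2.86 at day 7. These FPKM lay above the uncrushed ones, yet the TMM-scaled counts differed by -0.06 (SE 0.223, adjusted p = 0.861), -0.17 (SE 0.226, adjusted p = 0.592) and 0.06 (SE 0.227, adjusted p = 0.871). FPKM is scaled by the total of a library, and with total counts in place of TMM the median gene of whole nerve itself moved by 0.41, 0.39 and 0.42 at days 3, 5 and 7, while Edn1 moved by 0.35, 0.23 and 0.47, with adjusted p of 0.205, 0.415 and 0.113. Changes after crush are read relative to that median here. In Schwann cells total counts moved the median gene to -0.05, 0.08 and 0.10. The length that RSEM assigned to Edn1 also divides its FPKM. In whole nerve it was 2321 and 1988 bases before crush, 2321 and 2287 at day 3, 1799 and 1892 at day 5, then 2321 and 2199 at day 7.

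Purified Schwann cells held less Edn1 than whole nerve at each day after crush. In uncrushed samples the answer depended on the scaling, with TPM of 3.77 and 3.03 in Schwann cells and 3.76 and 3.25 in whole nerve. The log2 difference, Schwann cells minus whole nerve, was -0.89 in uncrushed samples (SE 0.266, adjusted p = 0.00898), -2.82 at day 3 (SE 0.287, adjusted p = 1.08e-06), -2.02 at day 5 (SE 0.276, adjusted p = 2.66e-05) and -1.29 at day 7 (SE 0.262, adjusted p = 0.000843). The uncrushed difference did not pass without the first uncrushed whole nerve library (-0.63, adjusted p = 0.121) or with total counts (-0.58, adjusted p = 0.0673). Endothelial cells are a known source of Edn1. Of 10 endothelial markers, 5 passed the filter on low counts in Schwann cells, and 3 of these were called lower at each day after crush. The 3 were Tek, Kdr and Vwf, named after their values were seen. Tek, the angiopoietin receptor, stood at 4.23 and 3.19 FPKM in uncrushed Schwann cells, later 0.35 and 0.40 at day 3, 0.86 and 0.96 at day 5, then 1.21 and 1.58 at day 7. Kdr, a receptor of VEGF, had 96 and 83 counts in uncrushed cells and 22 and 110 at day 3, the 110 in the library with the largest total, and its FPKM was below both uncrushed libraries in each. Vwf, the von Willebrand factor, had 72 and 82 counts against 4 and 15. The remaining markers did not share this course. Pecam1 had 0 counts in both uncrushed Schwann cell libraries, 3 and 36 at day 3, 2 and 2 at day 5, then 2 and 0 at day 7. Cdh5 stood at 0.27 and 0.27 FPKM in uncrushed Schwann cells, later 0.13 and 1.42 at day 3, 0.25 and 0.41 at day 5, then 0.12 and 0.07 at day 7, against 38.1 to 66.4 in whole nerve. The endothelial sum went from 6.71 and 5.50 FPKM in uncrushed Schwann cells to 1.66 and 5.39 at day 3, 1.69 and 2.22 at day 5, then 2.05 and 2.23 at day 7. Tek, Kdr and Vwf gave 6.03 and 5.11 FPKM of the uncrushed sums. The other 7 markers, a split made after the values were seen, summed to 0.68 and 0.39 FPKM in uncrushed cells, 1.04 and 4.23 at day 3, 0.55 and 0.96 at day 5, then 0.38 and 0.26 at day 7, and so were higher in both libraries of day 3. The part of endothelial cells in the fall of Edn1 was not tested. The third ligand, Edn2, had 1 count in 1 Schwann cell library of day 5 and 0 in the other 15 libraries.

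Edn3 was thus the more abundant ligand per transcript length after crush. The ratio of Edn3 to Edn1 FPKM was 88.9 and 117 in Schwann cells at day 3, 72.1 and 58.4 at day 5, then 6.62 and 13.4 at day 7. In whole nerve it was 0.633 and 1.26 before injury, 17.8 and 11.6 at day 3, 5.64 and 5.82 at day 5, then 2.23 and 3.47 at day 7. Schwann cells lay above whole nerve at each day after crush.

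The receptors came next. Ednrb, which takes either ligand, was among the abundant transcripts of Schwann cells. It measured 236 and 170 FPKM in uncrushed cells, 135 and 114 at day 3, 350 and 324 at day 5, then 507 and 536 at day 7. The dip at day 3 and the climb after it left no overlap between any of these groups. By mean level, 283 genes stood above Ednrb in the uncrushed cells, and 592, 201 and 113 genes did on days 3, 5 and 7. Counts fell by 0.39 on the log2 scale at day 3 (SE 0.131, adjusted p = 0.029), and rose by 0.83 at day 5 (SE 0.131, adjusted p = 0.000566) and by 1.47 at day 7 (SE 0.133, adjusted p = 2.05e-05). The dip is the weakest of these calls. It was lost without the second Schwann cell library of day 3 (-0.28, adjusted p = 0.215), without the first uncrushed library (-0.21, adjusted p = 0.182) and in a fit of its own 4 libraries (adjusted p = 0.0558). The length that RSEM assigned to Ednrb, which divides the FPKM, was 2767 and 2907 bases in uncrushed Schwann cells and 3335 and 3342 at day 3. From day 3 to day 7 Ednrb rose by 1.86 (SE 0.134, adjusted p = 2.6e-05).

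In whole nerve Ednrb rose at each time, from 23.6 and 28.3 FPKM to 54.3 and 54.4 at day 3, 175 and 196 at day 5, then 188 and 249 at day 7. No crushed library overlapped the uncrushed ones. The log2 changes were 0.65 (SE 0.136, adjusted p = 0.00286), 2.43 (SE 0.141, adjusted p = 5.21e-07) and 2.61 (SE 0.142, adjusted p = 5.78e-07), and the step from day 3 to day 7 was 1.96 (SE 0.137, adjusted p = 1.03e-05). Over that step in whole nerve, 9 of 10 Schwann cell markers were called higher and 1 lower, and 7 of 7 macrophage markers lower. The part of these cells in the rise of Ednrb, or in the fall of Edn3, was not tested. Schwann cells exceeded whole nerve in Ednrb throughout, by 2.45 in uncrushed samples (SE 0.154, adjusted p = 7.12e-09), 1.30 at day 3 (SE 0.147, adjusted p = 3.15e-06), 0.73 at day 5 (SE 0.145, adjusted p = 0.000718) and 1.19 at day 7 (SE 0.146, adjusted p = 9.18e-06).

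Ednra, the receptor of vascular smooth muscle that prefers endothelin-1, was low in Schwann cells and rose after crush. Uncrushed cells had 0.35 and 0.20 FPKM from 21 and 11 counts. It reached 1.54 and 1.29 FPKM at day 3, 1.29 and 1.42 at day 5, then 0.63 and 1.10 at day 7. Each crushed library was above both uncrushed ones. The log2 changes were 2.41 (SE 0.351, adjusted p = 0.000325), 2.28 (SE 0.353, adjusted p = 0.000487) and 1.58 (SE 0.365, adjusted p = 0.00586). Day 7 was at -0.82 against day 3 (SE 0.307, adjusted p = 0.0874), which passed 0.05 in a fit of all 16 libraries (-0.83, adjusted p = 0.0332), with no filter on low counts (adjusted p = 0.0379) and without the second library of day 7 (-1.27, adjusted p = 0.0375).

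Whole nerve held more Ednra, with 5.47 and 3.67 FPKM before crush, 7.96 and 7.43 at day 3, 10.5 and 8.82 at day 5, then 6.94 and 6.69 at day 7. The crushed libraries were above the uncrushed ones by FPKM. Relative to the median gene it rose at day 5, by 0.66 on the log2 scale (SE 0.168, adjusted p = 0.0109), and was at 0.34 at day 3 (SE 0.168, adjusted p = 0.126) and 0.16 at day 7 (SE 0.170, adjusted p = 0.528). The day 5 call was lost without the second uncrushed library (0.42, adjusted p = 0.0584) or the first of day 5 (0.55, adjusted p = 0.0822). With total counts Ednra passed at all 3 days, at 0.75, 1.06 and 0.56. Schwann cells held less Ednra than whole nerve, with log2 differences of -4.36 in uncrushed samples (SE 0.294, adjusted p = 1.46e-08), -2.40 at day 3 (SE 0.223, adjusted p = 4.1e-07), -2.87 at day 5 (SE 0.227, adjusted p = 1.02e-07) and -3.07 at day 7 (SE 0.245, adjusted p = 1.14e-07).

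Mural cells of vessels are a known site of Ednra. Their smooth muscle actin Acta2 measured 0.77 and 0.79 FPKM in uncrushed Schwann cells, later 0.47 and 2.12 at day 3, 0.18 and 0.30 at day 5, then 0.33 and 0.27 at day 7, against 32.6 to 62.4 in whole nerve. The pericyte gene Rgs5 was at 12.4 and 4.42 FPKM in uncrushed Schwann cells and at 1.16 to 10.2 after crush, against 188 to 300 in whole nerve. The sum of 9 mural markers was lower after crush, 9.21 to 21.5 FPKM against 63.1 and 52.6, of which Pdgfrb, a receptor named after its values were seen and higher in uncrushed Schwann cells than in whole nerve, gave 33.7 and 29.1. None of the mural markers tested was called higher at days 3, 5 or 7, and 2 of 7 were called lower at each. The part of mural cells in the level of Ednra was not tested.

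The balance of the receptors in each library followed from these levels. In Schwann cells the ratio of Ednrb to Ednra FPKM was 675 and 848 before injury, 87.7 and 88.4 at day 3, 271 and 228 at day 5, then 805 and 487 at day 7. Days 3 and 5 lay below the uncrushed libraries, and day 7 overlapped them. In whole nerve the ratio was 4.32 and 7.71 before injury, 6.82 and 7.32 at day 3, 16.7 and 22.3 at day 5, then 27.1 and 37.3 at day 7. Ednrb exceeded Ednra in all 16 libraries.

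**Figure D3:**
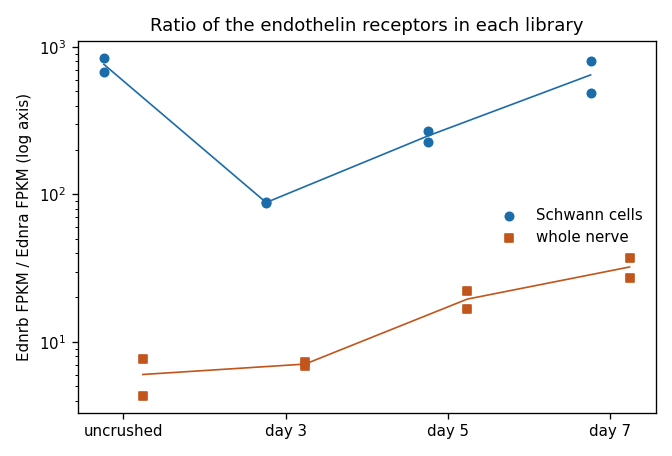
Ratio of Ednrb to Ednra FPKM (log axis) by time after crush; each point is 1 library, circles Schwann cells and squares whole nerve, and lines join the means of 2 libraries. The ratio in Schwann cells drops from 675 and 848 to 87.7 and 88.4 at day 3, and in whole nerve it reaches 27.1 and 37.3 at day 7.

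Ece1, the converting enzyme, fell in Schwann cells. It measured 24.9 and 28.2 FPKM in uncrushed cells, 16.9 and 17.1 at day 3, 14.0 and 14.3 at day 5, then 12.2 and 13.1 at day 7. The 4 groups did not overlap. The log2 changes against uncrushed cells were -0.61 (SE 0.104, adjusted p = 0.000863), -0.98 (SE 0.105, adjusted p = 4.59e-05) and -1.16 (SE 0.106, adjusted p = 2.28e-05). From day 3 to day 7 Ece1 fell by 0.54 (SE 0.106, adjusted p = 0.00573), a call lost without the second library of day 3 (adjusted p = 0.0541) or the first of day 7 (adjusted p = 0.0561).

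In whole nerve Ece1 was at 19.3 FPKM in both uncrushed libraries, 30.3 and 28.8 at day 3, 23.5 and 26.0 at day 5, then 23.7 and 26.7 at day 7. Here the scaling decided the call. With TMM the changes were 0.21 (SE 0.094, adjusted p = 0.0981), -0.03 (SE 0.095, adjusted p = 0.83) and -0.03 (SE 0.095, adjusted p = 0.846). With total counts, under which the median gene moved by 0.41, 0.39 and 0.42, they were 0.62, 0.37 and 0.38, with adjusted p of 0.000297, 0.00778 and 0.00818. The tissues differed by 0.18 before injury (SE 0.098, adjusted p = 0.122), a difference that passed with upper quartile scaling (0.25, adjusted p = 0.0365), with total counts (0.49, adjusted p = 0.000463) and without the first uncrushed Schwann cell library (0.27, adjusted p = 0.0422). After crush Schwann cells held less Ece1 than whole nerve, with differences of -0.74 (SE 0.097, adjusted p = 1.31e-05), -0.89 (SE 0.098, adjusted p = 2.99e-06) and -1.06 (SE 0.099, adjusted p = 5.92e-07) at days 3, 5 and 7.

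**Figure D4:**
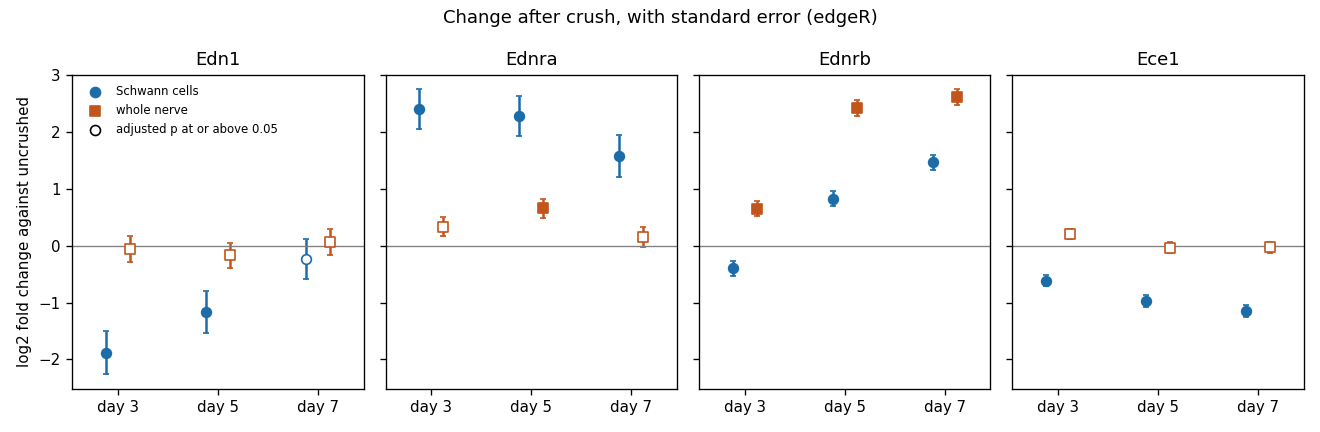
Log2 fold change of Edn1, Ednra, Ednrb and Ece1 against uncrushed samples at days 3, 5 and 7, from edgeR with TMM; circles are Schwann cells, squares whole nerve, bars 1 standard error, and open symbols have an adjusted p at or above 0.05. Ednra sits at 2.41 in Schwann cells and 0.34 in whole nerve at day 3, and Ece1 at -0.61 and 0.21.

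Against uncrushed Schwann cells, the 4 genes other than Edn3 all passed at day 3 (1 higher and 3 lower) and at day 5 (2 higher and 2 lower), and 3 passed at day 7 (2 higher and 1 lower). Of all genes tested, 52.5%, 54.6% and 46.9% passed, with 26.9%, 29% and 25% higher and 25.7%, 25.6% and 21.9% lower. Without the second library of day 3, 3 of 4 passed at that day. In whole nerve 1, 2 and 1 of the 4 genes passed at days 3, 5 and 7, each higher, beside 45.6%, 38.4% and 31.3% of all genes in either direction, with 23.1%, 18.9% and 15.4% higher and 22.5%, 19.5% and 15.9% lower. With total counts the number in whole nerve was 3 at each day. From day 3 to day 7, 4 of 5 genes passed in Schwann cells and 2 of 5 in whole nerve, against 21% and 21.2% of all genes. Between the tissues, 3 of 4 passed in uncrushed samples and 4, 5 and 4 of 5 at days 3, 5 and 7, beside 64.4%, 57.3%, 51.7% and 51% of all genes. The counts out of 5 include Edn3, whose levels after crush entered the choice of genes.

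Whether the change after crush differed between the 2 tissues was tested by the interaction term of a fit of all 16 libraries, for the 4 genes other than Edn3. Handling differed with the tissue, so the term cannot tell tissue from handling. The term is the change in Schwann cells minus that in whole nerve, and the 3 days share the same uncrushed libraries. It passed for 4, 4 and 3 of the 4 genes at days 3, 5 and 7, against 26%, 27.5% and 26% of all genes tested. For Ednra it was positive, at 1.95 (SE 0.383, adjusted p = 0.00168), 1.49 (SE 0.388, adjusted p = 0.0106) and 1.29 (SE 0.405, adjusted p = 0.0307). For Ednrb it was negative, at -1.15 (SE 0.207, adjusted p = 0.000876), -1.72 (SE 0.207, adjusted p = 2.94e-05) and -1.26 (SE 0.207, adjusted p = 0.000448). Ece1 stood at -0.92, -1.07 and -1.24, with adjusted p of 0.000186, 5.45e-05 and 1.78e-05. Edn1 stood at -1.92, -1.12 and -0.40, with adjusted p of 0.00217, 0.0419 and 0.474. The day 5 term of Edn1 and the day 7 term of Ednra were each lost in several fits that left out 1 library. In whole nerve, macrophage markers moved with the injury: 7, 7 and 6 of 7 were called higher at days 3, 5 and 7, with medians of 1.83, 1.00 and 0.97, and their sum went from 136 and 123 FPKM to 537 and 561, then 348 and 323, then 336 and 344. In Schwann cells 1 of 5 tested was called higher at day 3 and 0 at days 5 and 7. Of 10 endothelial markers in whole nerve, 3, 1 and 0 were called higher and 3, 3 and 5 lower, and of 9 mural markers 1, 1 and 1 higher and 5, 2 and 3 lower. By FPKM, which total counts scale, both sums were above the uncrushed libraries in all 6 crushed ones, the endothelial at 134 to 156 against 124 and 118 and the mural at 350 to 434 against 347 and 285. Of 7 fibroblast markers, 3, 2 and 4 were called higher and 2, 2 and 2 lower. Their sum was 5250 to 6390 FPKM after crush against 4130 and 4860. Of 10 Schwann cell markers in whole nerve, 2, 2 and 2 were called higher and 6, 6 and 5 lower. In Schwann cells 3, 3 and 4 of them were called higher and 6, 6 and 5 lower. Erbb3, named after its values were seen, had mean FPKM of 31.6, 71.2, 94.7 and 98.4 over the 4 times in whole nerve. In Schwann cells it had 176, 241, 251 and 261. The part of all these cells in the changes of the endothelin genes in whole nerve, and in the interaction, was not tested.

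The wider pathway was described from 3 lists, whose counts stand beside 52.5%, 54.6% and 46.9% of all genes called in Schwann cells and 45.6%, 38.4% and 31.3% in whole nerve at days 3, 5 and 7. Among the other genes of endothelin processing and clearance, 3 of 6 passed the filter on low counts in Schwann cells, and Edn2, Kel and Cma1 did not. At each day 1 rose, 1 fell and 1 was not called. Furin, the protease that frees big endothelin from its precursor, rose from 3.98 and 3.38 FPKM to 10.4 and 10.3 at day 3, 9.43 and 10.1 at day 5, then 7.89 and 8.07 at day 7. Its log2 changes were 1.53, 1.36 and 1.06, with adjusted p of 3.38e-06, 8.42e-06 and 6.2e-05. Mme, the neprilysin that degrades endothelins, fell from 157 and 150 FPKM to 46.2 and 52.0, then 39.3 and 40.3, then 39.9 and 34.5. Its changes were -1.56, -1.94 and -2.05, with adjusted p of 1.84e-06, 6.59e-07 and 7.49e-07. Ece2, another converting enzyme, named after its values were seen, was at -0.52, -0.19 and 0.04 and did not pass. The list medians were -0.52, -0.19 and 0.04, beside 0.00, 0.06 and 0.06 over all genes. In whole nerve Furin rose by 0.84, 0.45 and 0.49 and Mme fell by 1.75, 2.09 and 1.92, the other 3 genes tested not passing at any day.

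Of the G proteins, phospholipases, calcium channels, kinases and arrestins below the receptors, 20 of 21 were tested in Schwann cells. The counts of higher, lower and uncalled genes were 5, 8 and 7 at day 3, 4, 7 and 9 at day 5, then 1, 8 and 11 at day 7. Of all genes, 26.9%, 29% and 25% were called higher and 25.7%, 25.6% and 21.9% lower. The list medians were 0.04, -0.07 and -0.22, beside 0.00, 0.06 and 0.06 over all genes. Prkca, a protein kinase C that diacylglycerol activates, had the largest rise at day 3, from 27.4 and 33.9 to 84.6 and 76.1 FPKM, or 1.44 (SE 0.133, adjusted p = 1.55e-05). It was the gene still called higher at day 7 (1.27, adjusted p = 5.12e-05), and in whole nerve it fell by 0.81 at day 3 (adjusted p = 0.00033). The other 4 called higher at day 3, named after their values were seen, were Gna11, Gna12, Gnai2 and Prkcd, at 0.77, 0.56, 0.60 and 0.47. Plcb4, a phospholipase C that Gq proteins switch on, fell furthest, from 17.6 and 13.5 to 2.77 and 2.43 FPKM at day 3, or -2.58 (SE 0.145, adjusted p = 5.64e-07). It was at 1.28 and 1.43 FPKM at day 5, then 2.53 and 1.73 at day 7. In whole nerve the 21 genes gave 3, 11 and 7, then 1, 10 and 10, then 0, 9 and 12, where 22.5%, 19.5% and 15.9% of all genes were called lower. The medians were -0.25, -0.26 and -0.29 beside 0.00, -0.01 and 0.02 over all genes. With total counts the median of all genes there moved by more than these values.

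Of 12 genes tied to Edn3 and Ednrb in neural crest and pigment cells, 8 were tested in Schwann cells. At day 3, 3 rose, 4 fell and 1 was not called; the counts were 4, 3 and 1 at day 5, then 4, 2 and 2 at day 7. The list medians were -0.19, 0.48 and 0.18, beside 0.00, 0.06 and 0.06. Gdnf, the ligand of the Ret receptor, had the largest rise, from 3.26 and 1.60 FPKM to 65.2 and 78.2 at day 3, or 4.89 (SE 0.264, adjusted p = 4.43e-07), and then stood at 42.3 and 53.2 and at 23.4 and 30.3 FPKM. Gfra1, its coreceptor, and Kit, the receptor of stem cell factor, were the other genes that rose at day 3, by 2.25 and 2.84; they are named after their values were seen. Pax3, a crest transcription factor, fell by 2.35 at day 3 (SE 0.717, adjusted p = 0.0202) on few reads, 19 counts in each uncrushed library against 6 and 5. Sox10, the lineage factor that Schwann cells keep, also named after its values were seen, was at 0.07, -0.01 and 0.45, and passed at day 7 (adjusted p = 0.0106). In whole nerve the counts were 3, 3 and 2, then 4, 2 and 2, then 3, 2 and 3, with medians of 0.17, 0.36 and 0.26.

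Lastly, the genes whose FPKM followed each member most closely were listed by Pearson's r of log2(FPKM + 1) over the 16 libraries, among 14686 genes. The points share their libraries, and each group gives 2, so r is a description. For Edn3 they were Ucp2 (0.993), Arhgap22 (0.990), Slc41a3 (0.987), Piezo1 (0.985) and Mrpl3 (0.983). Ucp2, an uncoupling protein of mitochondria, went from 21.6 and 19.6 FPKM in uncrushed Schwann cells to 247 and 278 at day 3, 312 and 270 at day 5, then 131 and 171 at day 7. Piezo1, a channel that opens on stretch, went from 1.70 and 1.39 FPKM to 5.82 and 6.01, 5.59 and 5.61, and 3.55 and 4.54. The set depended on the measure: 1 of the 5 stayed with Spearman's rho and 2 with a pseudocount of 0.1. For Ednrb the closest were Trim2 (0.971), Sox5 (0.970) and Plekha1 (0.969). They were Elk3 (0.991), Loxl2 (0.988) and Il2rg (0.985) for Ednra, Phldb2 (0.964), Tnfrsf21 (0.963) and RGD1311744 (0.959) for Edn1, and Zfp217 (0.972), Tmem176b (0.967) and Ugcg (0.956) for Ece1. With Spearman's rho 0 of the 3 stayed for Ednrb, 0 for Edn1, 1 for Ednra and 2 for Ece1, and with a pseudocount of 0.1 it was 3, 2, 2 and 3. The plot of relative levels sets Edn3 beside its 5 genes.

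**Figure D5:**
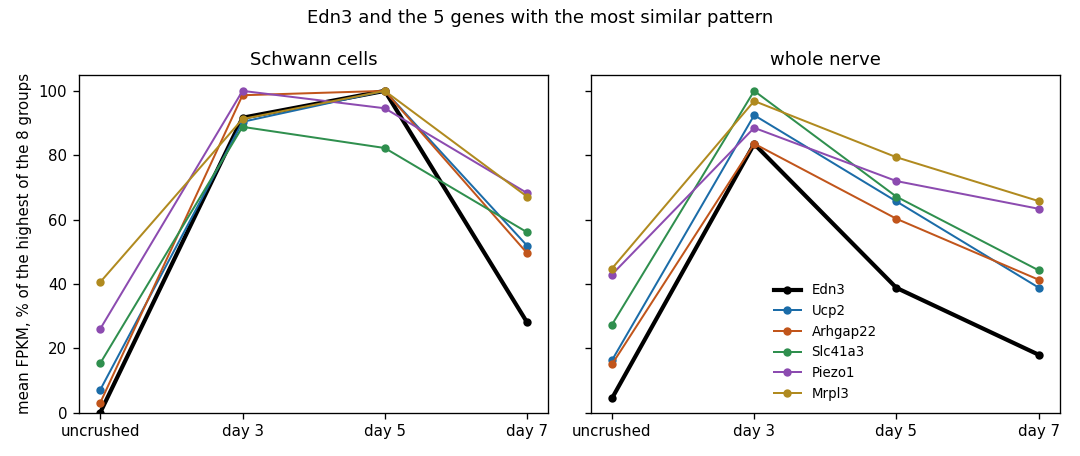
Mean FPKM of Edn3 (thick black line) and the 5 genes with the highest Pearson's r to it, as a percent of each gene's highest group mean, by time after crush in Schwann cells (left) and whole nerve (right). All 6 genes peak at day 3 or day 5 in both tissues, and Edn3 starts lowest, at 0 FPKM in uncrushed Schwann cells.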

How the data were processed

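RNA of the 16 libraries was sequenced after amplification of the cDNA (Ovation V2), with no molecular identifiers. The authors aligned reads to Rnor_6.0 with STAR and estimated expected counts, FPKM and TPM per gene with RSEM; these were deposited per library for 31038 genes, and the deposited series table held the same expected counts. The study's methods also name TopHat2 and Cufflinks for its own FPKM, which were not used here. A deposited table of co-expression modules has 8 columns of per-sample values whose names give no tissue, and it was not used, nor were its modules.

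Expected counts were rounded and put through edgeR 4.0.16 (R 4.3.3), by its quasi-likelihood test with TMM scaling, filterByExpr and Benjamini-Hochberg adjustment over all genes tested at 0.05. Fits held the 8 libraries of 1 tissue (14961 genes in Schwann cells, 15831 in whole nerve) or all 16 (16829). SE is the log2 change divided by the square root of F. An exact permutation test of 2 against 2 cannot go below 0.333 and was not used. Levels and ratios are deposited FPKM, with TPM as an alternative for changes within a tissue. The fall of Ece1 in Schwann cells was larger by TPM, from 56.45 and 61.79 in uncrushed cells to 23.4 and 25.38 at day 7. On simulated counts of Schwann cells day 3 versus uncrushed, edgeR recovered 169 of 200 changed genes (72 of 100 at 2-fold, 97 of 100 at 4-fold) among 14546, with 21 false among 190 calls; DESeq2 1.42.0 recovered 175, with 36 false among 211 calls. The 2 libraries of each group differed by more than sampling noise. Same-numbered libraries did not deviate together (28 correlations, -0.0552 to 0.0758), so the numbers were not used as pairs.

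The members and lists were chosen with earlier results of these data known. Named were the 5 members, the called gene with the largest rise and fall of each list in Schwann cells at day 3, the genes most like each member among those with a mean FPKM of at least 1 in a group, and Pecam1, Cdh5, Rgs5 and Acta2; genes outside this rule are marked as named after their values were seen. Alternatives were DESeq2, upper quartile scaling, total counts (added after the data were seen), other filters, the replicate block, other sets of libraries and leaving out each library. Motifs were searched in promoter sequences of RefSeq.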

Additional observations from a re-analysis of the deposited data

Results flagged for a closer look

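The response to crush differed between Schwann cells and whole nerve by the interaction term of edgeR in 11 of 12 tests, 4 genes at 3 days that share their uncrushed libraries, beside 26%, 27.5% and 26% of all genes at days 3, 5 and 7. The term, the log2 change in Schwann cells minus that in whole nerve, was 1.95, 1.49 and 1.29 for Ednra at days 3, 5 and 7. It was negative for Ednrb, at -1.15, -1.72 and -1.26, and for Ece1, at -0.92, -1.07 and -1.24. Edn1 passed at day 3 (-1.92) and day 5 (-1.12). The day 5 term of Edn1 was lost with DESeq2, upper quartile scaling, no filter on low counts and in 7 of 8 fits that left out a library, and the day 7 term of Ednra with total counts and in 5 such fits. At day 3 Ednrb moved in opposite directions, -0.39 in Schwann cells and 0.65 in whole nerve, although the first of these was lost without the second Schwann cell library of day 3 (-0.28, adjusted p = 0.215), without the first uncrushed one (-0.21, adjusted p = 0.182) and in a fit of its own 4 libraries (adjusted p = 0.0558). Mural and endothelial marker sums were lower in crushed than in uncrushed Schwann cells, although the endothelial sum was 5.39 FPKM in the second library of day 3 against 5.50 in an uncrushed one. Tek, Kdr and Vwf gave most of the uncrushed endothelial sums, and the other 7 markers were higher in sum in both libraries of day 3. In whole nerve macrophage markers rose, 7, 7 and 6 of 7 at days 3, 5 and 7, while more endothelial and mural markers were called lower than higher except for the endothelial markers at day 3, with 3 each. Their sums by FPKM went the other way there, and were higher in all 6 crushed libraries than in the uncrushed ones. The part of these cells, of the share of Schwann cells and of the handling in the differences was not tested.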

How the results depend on the processing

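Of 12 changes against uncrushed Schwann cells, none changed direction, and the calls lost are given in the report. Scaling by total counts, chosen after the data were seen, raised the count of endothelin genes called in whole nerve from 1 to 3 at day 3 and from 1 to 3 at day 7, and that of all genes at day 7 from 4952 to 7959. Higher against lower calls went from 3654 and 3558 to 7009 and 1843 in whole nerve at day 3, from 2993 and 3089 to 6907 and 1596 at day 5, and from 2442 and 2510 to 6825 and 1134 at day 7. They went from 1532 and 1608 to 1934 and 1162 for day 7 against day 3 in Schwann cells, and from 4905 and 5939 to 6504 and 4544 between uncrushed tissues. For the interaction they went from 2076 and 2300 to 1078 and 4457 at day 3, from 2120 and 2513 to 1263 and 3815 at day 5, and from 1950 and 2424 to 1147 and 3793 at day 7. The construction moved the median gene, as given in the report.

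Endothelin genes called in whole nerve at day 3 numbered 2 with no filter, with the replicate block and in the fit of 16 libraries; the replicate numbers did not pair the libraries, and the cause was not tested. Leaving out 1 library at a time, endothelin genes called ranged from 2 (without the first library of day 7) to 5 for Schwann cells day 7 against day 3, from 1 to 2 (without the first uncrushed library) in whole nerve at day 3, from 1 (without the second uncrushed library or the first of day 5) to 2 at day 5, and from 2 (without the second uncrushed Schwann cell library) to 4 for the day 5 interaction. All genes called ranged from 1533 to 2182 for Schwann cells day 7 against day 3 and from 1635 to 2516 for whole nerve.

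Directions changed for values that TMM scaling did not call, and of the changed values those of Ece1 with total counts passed, as given in the report. In whole nerve Edn1 was at 0.02 at day 3 with 16 libraries and at 0.35 and 0.23 at days 3 and 5 with total counts. Ece1 there was at 0.00 (no filter), 0.07 (16 libraries) and 0.37 (total counts) at day 5, and at 0.02 (upper quartile), 0.06 (16 libraries) and 0.38 (total counts) at day 7. Leaving out 1 library, Edn1 ranged from -0.25 to 0.22, -0.36 to 0.10 and -0.14 to 0.33 at days 3, 5 and 7, Ednra from -0.08 to 0.48 at day 7, Ece1 from -0.09 to 0.04 at day 5 and -0.09 to 0.06 at day 7, and Edn3 between tissues at day 3 from -0.04 to 0.41.

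The interaction of Edn1 at day 5 was lost with DESeq2 (adjusted p = 0.0918), upper quartile scaling (0.0542), no filter (0.0995) and in 7 of 8 fits that left out a library. That of Ednra was lost at day 7 with total counts (1.03, adjusted p = 0.0731) and in 5 such fits, with values from 0.87 to 1.71, and at day 5 without the second uncrushed Schwann cell library (1.19, adjusted p = 0.0632). Depth limits Edn1 and Ednra in Schwann cells, with 10 to 53 and 11 to 157 counts per library.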
